A study of Homo sapiens with 15 samples.

Results

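The proteasome genes of human cells were followed here across 15 RNA-seq libraries. Members were the protein-coding genes whose symbol starts with PSMA to PSMG and a digit, without PSMB8 and PSMB9. The pattern found 47 of the 31352 genes in the table. Of these, 45 encode subunits, assembly chaperones or regulators of the proteasome, and 43 of them passed the filter on low counts. The 2 that did not pass are PSMA8, the testis form of an alpha subunit, with 3 reads in all libraries together, and PSMB11, the thymus form of a catalytic beta subunit, with 8 reads. The other 2 genes, PSMC3IP and PSME3IP1, carry the name of a partner protein and are described apart. The constitutive beta subunit gene PSMB3 was not matched by the pattern here and was not analysed.

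There were 3 libraries in each of 5 groups: NICD1, NICD2, NICD3 and NICD4, in which doxycycline induced the intracellular, active part of the NOTCH receptor of that number, and EV, the isogenic control with an empty vector. PolyA RNA was sequenced with the TruSeq version 2 kit. The labels give neither the dose nor the duration of doxycycline, nor whether EV cells received it, and nothing says that libraries came from separate cultures. The p-values therefore measure the spread between these libraries, which may be technical. The characteristics name the colorectal line HCT116 and the descriptions name U373, a glioma line. For NICD4 replicate 1 the title says NICD4 and other fields say NICD3, and it was kept in NICD4.

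The proteasome is the protease that degrades proteins tagged with ubiquitin. Its core is a barrel of alpha and beta rings with the catalytic sites inside, and its cap is a lid with a ring of ATPases that recognises, unfolds and feeds in the substrate. Dedicated chaperones build the alpha ring and the ATPase ring, and other activators can take the place of the cap. An inhibitor can also act on the core. Dividing cells make most of these genes at high levels.

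Libraries held 11630195 to 27704492 counted reads. The TMM scaling factors were 0.7929 to 1.088 in NICD libraries and 1.21 to 1.324 in EV libraries. Of 10 colorectal markers, 7 had reads in every library, and the list summed to 9502 to 23195 CPM over the NICD libraries and to 2089 to 2666 CPM over the EV libraries. Most of this sum came from the keratins KRT8, KRT18 and KRT19, which averaged 8512, 2322 and 2726 CPM in NICD1 and 1061, 392 and 703 CPM in EV. At low levels, VIL1 fell in NICD1 and NICD3 (-1.08 and -1.80 on the log2 scale). KRT20, also low, fell in NICD2 (-0.71) and rose in NICD3 and NICD4 (1.29 and 1.18). EPCAM averaged 222, 280, 231 and 151 CPM in NICD1 to NICD4 and 152 CPM in EV, and the intestinal factor CDX2 averaged 49.4, 37.7, 40.9 and 60.7 CPM in NICD1 to NICD4 and 17.7 CPM in EV, while CDX1 and LGR5 had 1 read each and CDH17 had 10 reads over all libraries. Of 9 astrocyte and glioma markers, 4 had reads in every library. The list summed to 41.4 to 81.1 CPM in NICD libraries and 51.8 to 55.6 CPM in EV libraries. NES and SLC1A3 were present in every group, and AQP4 and OLIG2 had 1 read each. ALDH1L1 fell in NICD1 and NICD2 (-1.20 and -1.89 on the log2 scale) and rose in NICD3 and NICD4 (4.28 and 1.95). It averaged 30 CPM in NICD3 and 1.51 CPM in EV. GFAP, at low levels, fell in NICD2 (-0.69) and rose in NICD3 and NICD4 (0.69 and 1.31). SLC1A3 fell in NICD1 (-0.54) and rose in NICD2 (1.30), and NES fell in NICD2 and NICD3 (-0.44 and -0.39). Of the receptor genes in their own NICD group, NOTCH2 rose in NICD2 (40.2 to 42.8 CPM in NICD2, 30.3 to 32.9 CPM in EV) but also in NICD1 and NICD4 (0.23 and 0.36 on the log2 scale), and NOTCH1, NOTCH3 and NOTCH4 were not called (-0.10, 0.17 and 0.28 on the log2 scale). The NOTCH target HES1 rose in NICD1 to NICD4 by 1.03, 2.43, 1.32 and 1.55 on the log2 scale. How much any of these differences between the groups contributes to the proteasome values was not tested. In bulk RNA, fewer cells of a kind and less RNA per cell cannot be told apart.

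With TMM scaling, 12, 12, 12 and 11 of 14 core genes rose in NICD1 to NICD4 and 2, 1, 1 and 2 fell. Of 17 cap genes 10, 11, 10 and 11 rose and 5, 0, 4 and 6 fell. Of 7 assembly chaperones 2 rose in each group, and 5, 2, 3 and 5 fell. Of all tested genes 35.6%, 29.6%, 33% and 37.4% rose and 39.8%, 29.9%, 36.2% and 43.6% fell. Many of these directions turned with library totals alone or with the GC trend removed, as given for each gene. The GC trend is a smooth curve fitted in each library over the 14737 tested genes with a GC value. It relates the deviation of each gene's log2 level from its mean over all libraries to transcript GC content. Removing it also recentres each library. A call is an adjusted p under 0.05 in the limma fit over 15122 genes, and "rose" and "fell" are used for calls. In NICD1 28 of 43 genes rose and 12 fell, and of all tested genes 35.6% rose and 39.8% fell. In NICD2 27 rose and 3 fell, against 29.6% and 29.9% of all tested genes. In NICD3 27 rose and 8 fell, against 33% and 36.2%. In NICD4 28 rose and 13 fell, against 37.4% and 43.6%. All 3 NICD libraries lay above all EV libraries for 30, 27, 28 and 29 genes in NICD1 to NICD4, and so they did for 37.8%, 33.5%, 37% and 37.8% of all tested genes. They lay below for 12, 6, 11 and 13 genes, and for 42.7%, 35.6%, 42.1% and 44% of all tested genes. These comparisons share the EV libraries. Levels are TMM-scaled CPM, reads scaled to a common library size corrected by TMM, and changes are differences of log2 levels.

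The median log2 change of the 43 genes was 0.36, 0.43, 0.41 and 0.46 in NICD1 to NICD4, while that of all tested genes was -0.08, -0.03, -0.07 and -0.12. With library totals alone in place of TMM the medians of the 43 genes turned negative in all but NICD2, at -0.10, 0.14, -0.01 and -0.09, and that of all tested genes moved to -0.53, -0.31, -0.48 and -0.66. Relative to the median of all genes the 43 genes were then higher by 0.43, 0.45, 0.47 and 0.57, against 0.44, 0.46, 0.48 and 0.58 with TMM. Counts of rises and falls with library totals alone were 13 and 18 in NICD1, 19 and 9 in NICD2, 16 and 17 in NICD3, and 13 and 20 in NICD4. All tested genes then rose in 21.9%, 18.8%, 19.9% and 24.1% of cases and fell in 56.1%, 44%, 54.6% and 58.6%.

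Genes with the same call in all 4 NICD groups were counted next. Called up in each were 24 of the 43 genes, where 23.2% of all tested genes were. Called down in each were 3, PSMA6, PSMD5 and PSMD10, where 23.3% of all tested genes were. None rose in one NICD group and fell in another (3.11% of all tested genes did), and PSME3, a subunit of a nuclear activator, was the 1 gene called in no NICD group (7.26% of all tested genes). Without NICD4 replicate 1, whose labels disagree, 25 genes were called up and 4 down in each group, and 27 rose and 13 fell in NICD4.

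**Figure D1:**
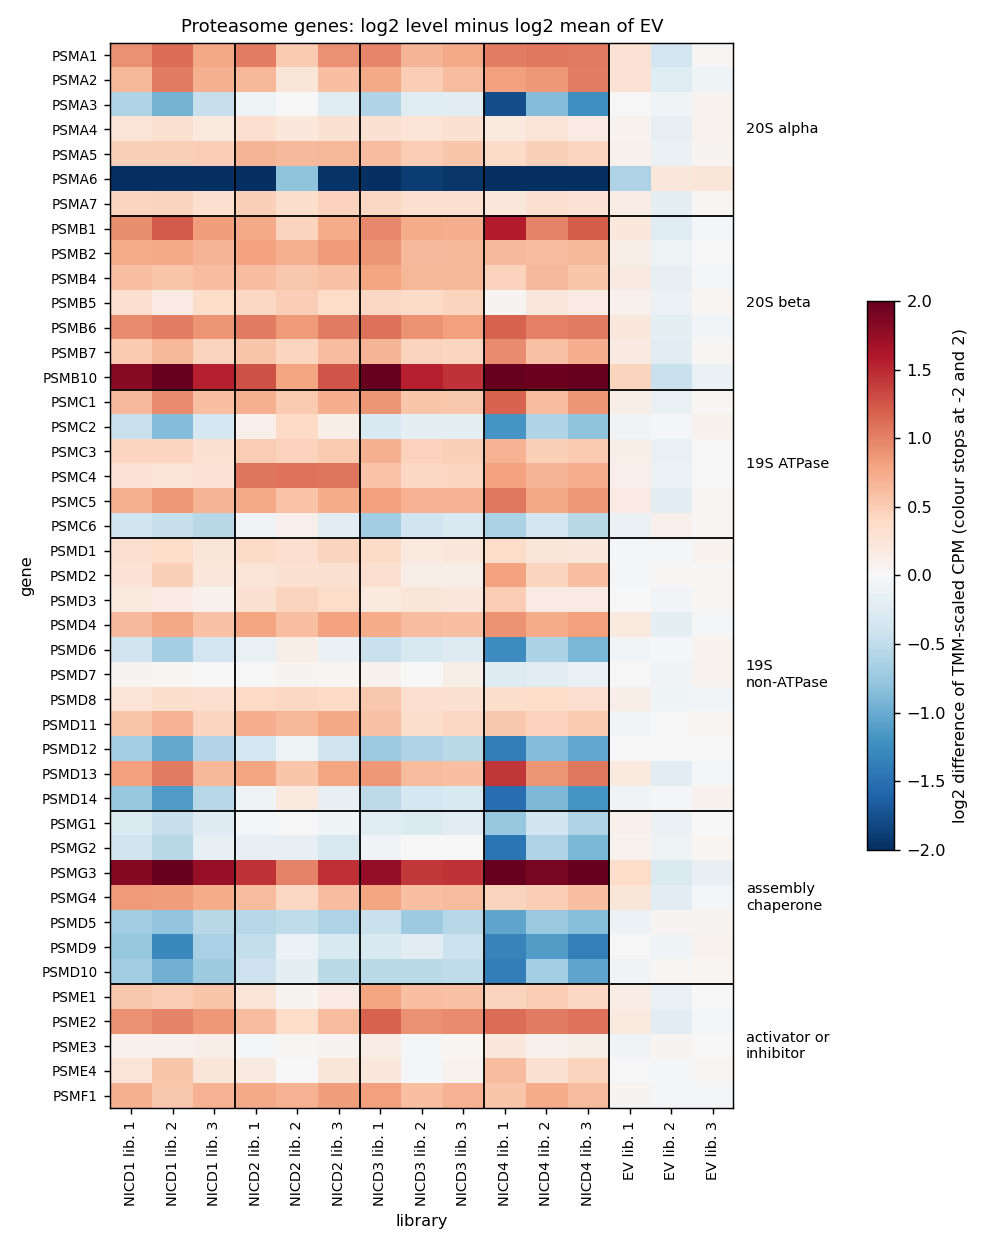
Log2 level of each of the 43 tested proteasome genes in each of the 15 libraries (columns, NICD1 to NICD4 and then EV), minus the log2 of the EV mean, in TMM-scaled CPM, with genes grouped by role. Red marks a library above the EV mean and blue one below it: PSMB10 and PSMG3 are red and PSMA6 is blue in every NICD library, and PSMC4 is darkest in NICD2.

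The map of levels by library shows each gene against the EV mean. The 3 EV libraries differed among themselves. EV replicate 2, with the highest scaling factor at 1.324, was the lowest EV library for most genes that rose. When it was left out, 26, 24, 26 and 26 genes rose in NICD1 to NICD4, and 21 were called up in all 4.

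Promoters were read for the 39 of 45 proteasome genes with a window in RefSeq (GRCh38.p14), 250 bases before to 50 after the start. PSMA7, PSMB1, PSMB6, PSMB7, PSMD4 and PSMG3 had none. Shown are the 200 bases before the start, in the gene's own direction, of 6 genes that the results turn on: PSMB10 and PSME2, which rose in every NICD group, PSMC4, which was highest in NICD2, and PSMD14, PSMD10 and PSMD5, which fell. They lie at chr16:67936851-67937050 (minus strand, PSMB10), chr14:24146611-24146810 (minus, PSME2), chr19:39970965-39971164 (plus, PSMC4), chr2:161308225-161308424 (plus, PSMD14), chrX:108091543-108091742 (minus, PSMD10) and chr9:120842923-120843122 (minus, PSMD5). Capitals mark matches, on either strand, to the core of the site of the NOTCH effector RBPJ (TGGGAA), the antioxidant response element bound by NFE2L1 and NFE2L2 (TGACNNNGC), the NF-Y box (CCAAT), an ETS site (CCGGAAG) and the E-box (CACGTG).
PSMB10: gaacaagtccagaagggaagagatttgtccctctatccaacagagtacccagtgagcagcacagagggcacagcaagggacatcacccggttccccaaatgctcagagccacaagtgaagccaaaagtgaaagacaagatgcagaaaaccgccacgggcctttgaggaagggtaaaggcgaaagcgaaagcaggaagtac
PSME2: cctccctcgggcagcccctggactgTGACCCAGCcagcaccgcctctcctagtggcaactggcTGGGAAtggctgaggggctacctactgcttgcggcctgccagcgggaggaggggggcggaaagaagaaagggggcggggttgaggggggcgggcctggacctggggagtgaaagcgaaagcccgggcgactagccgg
PSMC4: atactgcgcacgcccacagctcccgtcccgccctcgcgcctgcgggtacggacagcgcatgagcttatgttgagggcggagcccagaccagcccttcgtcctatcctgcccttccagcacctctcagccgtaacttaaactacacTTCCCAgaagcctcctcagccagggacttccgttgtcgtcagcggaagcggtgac
PSMD14: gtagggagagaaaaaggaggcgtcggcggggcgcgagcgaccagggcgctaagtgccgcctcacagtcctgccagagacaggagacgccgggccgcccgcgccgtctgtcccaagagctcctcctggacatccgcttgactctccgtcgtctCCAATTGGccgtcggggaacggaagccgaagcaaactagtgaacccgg
PSMD10: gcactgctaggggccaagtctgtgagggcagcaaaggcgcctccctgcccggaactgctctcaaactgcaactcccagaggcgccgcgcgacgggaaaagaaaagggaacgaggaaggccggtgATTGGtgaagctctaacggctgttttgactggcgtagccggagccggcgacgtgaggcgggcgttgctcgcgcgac
PSMD5: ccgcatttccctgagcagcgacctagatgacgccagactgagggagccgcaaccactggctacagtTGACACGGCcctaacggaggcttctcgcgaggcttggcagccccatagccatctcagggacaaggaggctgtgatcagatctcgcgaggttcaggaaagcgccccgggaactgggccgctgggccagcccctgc

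In the table's own build, GRCh37, these genes span chr16:67968405-67970990 (PSMB10), chr14:24612574-24616779 (PSME2), chr19:40477073-40487351 (PSMC4), chr2:162164549-162268228 (PSMD14), chrX:107327437-107334848 (PSMD10) and chr9:123577774-123605229 (PSMD5).

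No capital stands in the PSMB10 sequence. PSME2 has an antioxidant element and an RBPJ core, PSMC4 an RBPJ core 55 to 50 bases before the start on the other strand, PSMD14 overlapping NF-Y boxes on both strands, PSMD10 an NF-Y box and PSMD5 an antioxidant element. Over the whole windows, an RBPJ core was found in 28.2% of the 39 proteasome genes and 28.1% of the 27305 genes with a window. The antioxidant element was found in 33.3% and 16.1%, the NF-Y box in 46.2% and 39.7%, the ETS site in 38.5% and 12.2%, and the E-box in 5.13% and 8.77%. A match describes the letters of a window and is not a measured site, and these windows were read without any binding data.

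The alpha subunits form the outer rings of the core and its gate. Of 7 tested, 5 rose in each NICD group, and PSMA6 fell in each. PSMA1 rose by 0.95, 0.84, 0.83 and 1.07 on the log2 scale (SE 0.16), with 140, 161 and 127 CPM in NICD1, 151, 107 and 140 CPM in NICD2, 147, 120 and 126 CPM in NICD3, 152, 155 and 154 CPM in NICD4, and 90.7, 57.1 and 76.1 CPM in EV. The NICD libraries all lay above EV. PSMA2 rose by 0.82, 0.52, 0.65 and 0.92 (SE 0.14). The NICD2 library with 35.4 CPM of PSMA2 lay below the highest EV library with 36.5 CPM, and without EV replicate 2 the NICD2 rise was lost. PSMA2 also shares 99.7% of its span with a second annotated gene on the same strand, and how reads in both were counted is not given in the sources used here.

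Smaller rises were seen for PSMA5, PSMA7 and PSMA4. PSMA5 rose by 0.48, 0.67, 0.56 and 0.43 (SE 0.08; -0.11 in NICD4 with library totals alone), with no NICD library below 348 CPM and no EV library above 284 CPM. PSMA7, the proteasome gene with the highest EV level per kilobase of exon (357 ± 42.2 CPM per kilobase, SD, n = 3), rose by 0.40, 0.44, 0.37 and 0.30 (SE 0.09), and with library totals alone its changes were -0.05, 0.16, -0.05 and -0.25. PSMA4 rose by 0.26, 0.29, 0.30 and 0.22 (SE 0.08), and with library totals alone its changes were -0.19, 0.01, -0.12 and -0.33. The direction of PSMA7 and PSMA4 thus depended on the scaling.

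PSMA6, the remaining alpha subunit with a fall in every NICD group, had the largest change of all proteasome genes. It had 1.58, 0.75 and 1.97 CPM in NICD1, 2.87, 7.3 and 3.3 CPM in NICD2, 1.39, 3.44 and 3.32 CPM in NICD3, 0.452, 1.04 and 0.972 CPM in NICD4, and 8.38, 14.9 and 15.2 CPM in EV. Every NICD library lay below every EV library, with the nearest pair at 7.3 CPM in NICD2 and 8.38 CPM in EV. The log2 changes were -3.16, -1.58, -2.27 and -3.90 (SE 0.46), with adjusted p of 2.2e-05, 0.0085, 0.00049 and 2e-06. Its EV level per kilobase of exon was 1.97 ± 0.589, the lowest of the tested core genes, and its whole span lies inside another annotated gene on the same strand. How reads in both genes were counted is not given in the sources used here, so the level of PSMA6 is uncertain.

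PSMA3 fell in NICD1 and NICD4, by 0.67 and 1.29 on the log2 scale (SE 0.18). Its level was 138, 108 and 152 CPM in NICD1, 61.3, 115 and 89.2 CPM in NICD4, and 209, 200 and 219 CPM in EV. In NICD2 and NICD3 its changes were -0.11 and -0.35, without a call. All libraries of NICD1, NICD3 and NICD4 lay below EV, and those of NICD2 overlapped EV. NICD4 was below NICD1, NICD2 and NICD3 by 0.62, 1.18 and 0.93, all called, and the call against NICD1 was lost without replicate 1 or 3 of NICD1 or of NICD4. With the GC trend of each library removed, the 4 changes of PSMA3 were 0.07, 0.34, 0.24 and -0.39. The antisense gene PSMA3-AS1 covers 24.5% of its span and averaged 10.7, 14.5, 12.3 and 12.2 CPM in NICD1 to NICD4 and 28.5 CPM in EV, and reads of the 2 strands cannot be told apart without strand information.

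The beta subunits form the inner rings, and 3 of the constitutive ones are proteases. Those tested were the constitutive PSMB1, PSMB2, PSMB4, PSMB5, PSMB6 and PSMB7 and the immunoproteasome subunit PSMB10, without PSMB3. All 7 tested rose in NICD1, NICD2 and NICD3, and 6 rose in NICD4. Their median log2 change was 0.73, 0.66, 0.73 and 0.76, above those of the alpha, ATPase and non-ATPase genes in all 4 comparisons. Once the GC trend was removed the beta medians were 0.86, 0.83, 0.85 and 0.95, and the alpha medians, at 0.93, 0.70, 0.84 and 1.04, were higher in NICD1 and NICD4. With library totals alone the beta medians stayed positive, at 0.27, 0.37, 0.31 and 0.22, while the alpha medians were -0.05, 0.16, -0.05 and -0.25.

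PSMB10, the immunoproteasome protease that replaces the trypsin-like PSMB7, rose most. It had 208, 268 and 172 CPM in NICD1, 142, 102 and 141 CPM in NICD2, 235, 172 and 160 CPM in NICD3, 386, 230 and 277 CPM in NICD4, and 79.8, 43 and 53.6 CPM in EV. No NICD library overlapped the EV libraries, and NICD2 was the lowest of the NICD groups. The rise was 3.73-fold (2.66 to 5.23) in NICD1, 2.23-fold (1.59 to 3.12) in NICD2, 3.27-fold (2.34 to 4.59) in NICD3 and 5.11-fold (3.65 to 7.16) in NICD4. These ranges reach 2 SE to either side on the log2 scale. NICD4 exceeded NICD2 by 1.20 on the log2 scale (SE 0.24, adjusted p = 0.00076). NICD2 was below NICD1 by 0.74 (adjusted p = 0.028), lost without NICD1 replicate 1, NICD1 replicate 2 or NICD2 replicate 2. NICD4 was above NICD3 by 0.64 (adjusted p = 0.041), lost without NICD1 replicate 1, NICD3 replicate 2 or 3, or NICD4 replicate 1 or 3. Removal of the GC trend ended both of these calls (-0.46, adjusted p = 0.071, and 0.32, adjusted p = 0.17), and the rises of PSMB10 against EV became 1.44, 0.98, 1.35 and 1.67 on the log2 scale, all still called.

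PSMB9, an immunoproteasome subunit outside the member pattern, averaged 2.13 ± 0.421 CPM in NICD1, 1.44 ± 0.156 CPM in NICD2, 3.82 ± 0.349 CPM in NICD3, 3.72 ± 0.384 CPM in NICD4 and 0.654 ± 0.141 CPM in EV (SD, n = 3 each). It rose in each NICD group, by 1.62, 1.09, 2.47 and 2.43 on the log2 scale (SE 0.19), at levels near the filter. PSMB8, the other immunoproteasome protease, averaged 0.346 ± 0.0898 CPM in NICD2 and 0.649 ± 0.0842 CPM in EV (SD, n = 3 each), fell in NICD2 (-0.83, SE 0.31) and was not called elsewhere.

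Among the constitutive beta subunits PSMB1, a non-catalytic one, rose by 1.01, 0.66, 0.82 and 1.27 (SE 0.16). Its level was 962, 1189 and 907 CPM in NICD1, 851, 689 and 844 CPM in NICD2, 990, 843 and 837 CPM in NICD3, 1507, 1008 and 1175 CPM in NICD4, and 588, 430 and 500 CPM in EV. All NICD libraries were above all EV libraries, and NICD4 was above NICD2 by 0.62 (adjusted p = 0.0036).

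PSMB6, the caspase-like protease, rose by about the same amount in every NICD group, by 0.96, 0.99, 0.95 and 1.09 (SE 0.11). Its level was 546, 575 and 520 CPM in NICD1, 579, 508 and 584 CPM in NICD2, 609, 525 and 500 CPM in NICD3, 643, 567 and 580 CPM in NICD4, and 329, 247 and 273 CPM in EV. Every NICD library was above EV. No pair of NICD groups differed for PSMB6 at an adjusted p under 0.05. PSMB7, the trypsin-like protease, rose by 0.55, 0.55, 0.53 and 0.76 (SE 0.12).

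PSMB5, the chymotrypsin-like protease and the target of proteasome inhibitors in the clinic, had the smallest changes of the group. It rose by 0.29, 0.43 and 0.41 in NICD1 to NICD3 (SE 0.08) and was not called in NICD4 (0.15, adjusted p = 0.11), where 264 to 298 CPM overlapped the 233 to 270 CPM of EV. Its changes with library totals alone were -0.16, 0.14, -0.01 and -0.39. The structural subunits PSMB2 and PSMB4 rose by 0.66 to 0.79 and by 0.56 to 0.71 over the 4 groups.

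**Figure D2:**
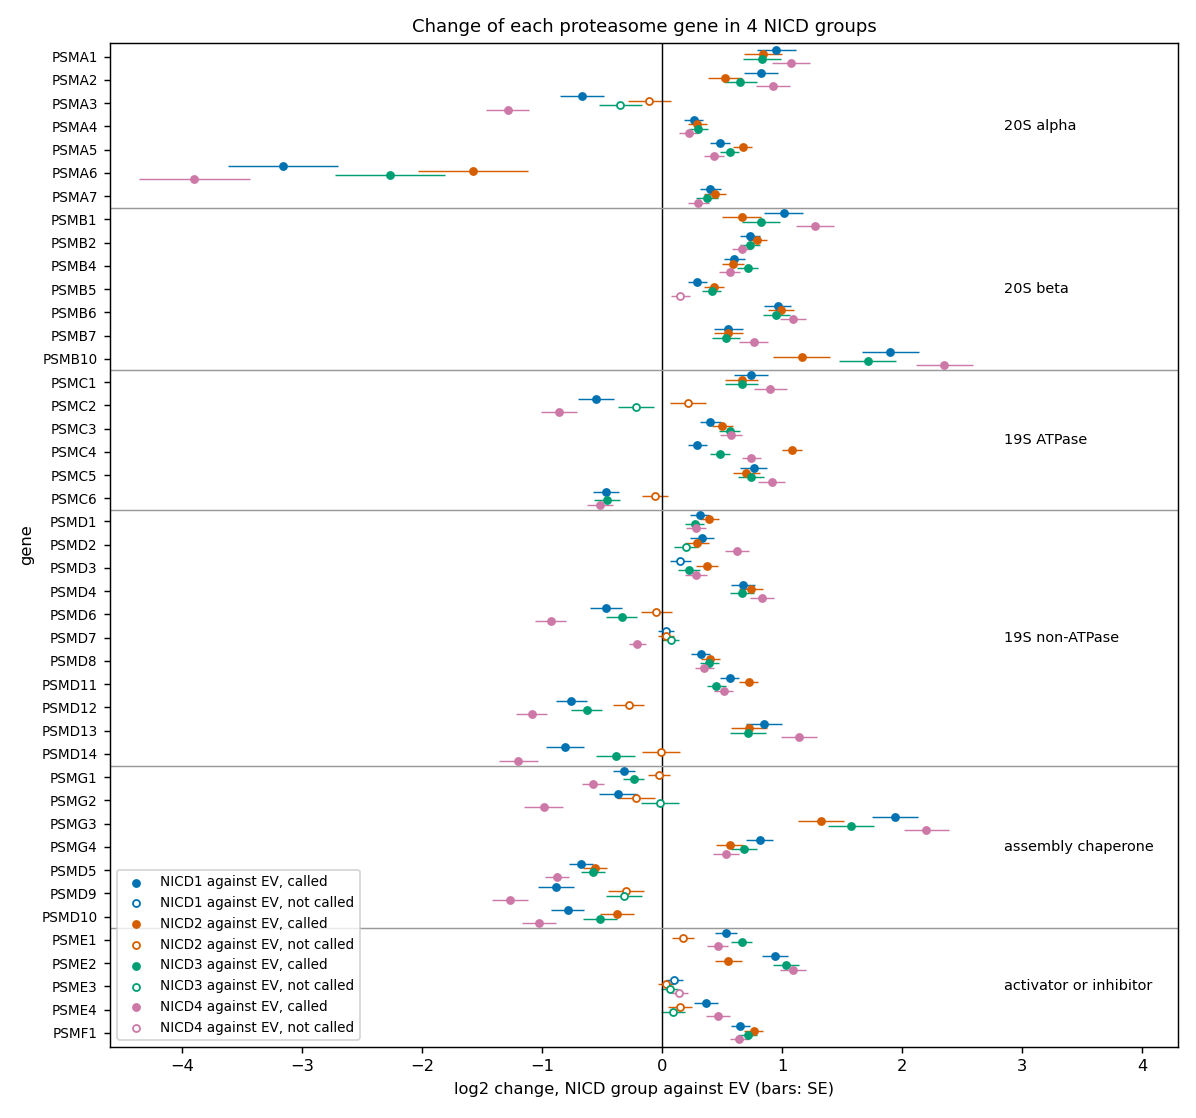
Log2 change of each of the 43 tested proteasome genes in each NICD group against EV (points, one colour a group, bars for the SE), with genes grouped by role. Filled points are calls: the 7 beta subunits lie right of 0 in all 4 groups with TMM scaling, PSMA6 lies far to the left, and open points are most frequent in NICD2, where 13 genes were not called.

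The ATPases form the ring of the cap that unfolds substrates and opens the gate of the core. Of 6 genes, PSMC1, PSMC3, PSMC4 and PSMC5 rose in every NICD group, and PSMC2 and PSMC6 fell in some. PSMC1 rose by 0.74, 0.66, 0.66 and 0.90 (SE 0.14), and PSMC5 by 0.76, 0.70, 0.74 and 0.91 (SE 0.11). For PSMC5 the lowest NICD library had 574 CPM (NICD2) and the highest EV library 432 CPM. PSMC3 rose by 0.40, 0.50, 0.56 and 0.57 (SE 0.09), and was at -0.06 in NICD1 with library totals alone.

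PSMC4 stood apart from the other ATPases in the order of the groups. It averaged 304 ± 2.35 CPM in NICD1, 526 ± 3.46 CPM in NICD2, 347 ± 22.4 CPM in NICD3, 416 ± 17.4 CPM in NICD4 and 250 ± 19.4 CPM in EV (SD, n = 3 each). The 5 groups did not overlap, and the order from high to low was NICD2, NICD4, NICD3, NICD1 and EV. Against EV it rose by 0.29, 1.08, 0.48 and 0.74 (SE 0.08). NICD2 was above NICD1 by 0.79 (adjusted p = 5.3e-06), NICD3 was below NICD2 by 0.60 (0.00012) and NICD4 was below NICD2 by 0.34 (0.0017). NICD4 was above NICD1 by 0.45 (0.001) and above NICD3 by 0.26 (0.013). This last call was lost with the GC trend removed (0.14, adjusted p = 0.11), with library totals alone (0.14, adjusted p = 0.098) and without NICD3 replicate 2 or 3. With the trend on GC content removed the NICD1 rise was 0.14 and not called (adjusted p = 0.066), and with library totals alone it was -0.17.

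PSMC2, another ATPase, fell in NICD1 and NICD4 and was called in neither NICD2 nor NICD3. Its level was 137, 102 and 146 CPM in NICD1, 200, 245 and 203 CPM in NICD2, 150, 163 and 165 CPM in NICD3, 81.7, 123 and 106 CPM in NICD4, and 178, 182 and 198 CPM in EV. NICD2 libraries all lay above EV, and those of the other 3 NICD groups all below it. The changes were -0.55 in NICD1 and -0.86 in NICD4 (SE 0.15, both called), and 0.21 in NICD2 and -0.22 in NICD3, without a call. After the GC trend was removed the changes were 0.26, 0.69, 0.43 and 0.11, so the falls turned. The processed pseudogene PSMC2P1 had 1391 reads, the most of any proteasome pseudogene, against 48655 reads for PSMC2.

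PSMC6 fell by 0.47, 0.46 and 0.52 in NICD1, NICD3 and NICD4 (SE 0.11) and was not called in NICD2 (-0.06). All 4 changes were positive and called once the GC trend was removed, at 0.37, 0.44, 0.22 and 0.47. PSMC6 has the lowest transcript GC content of the 43 genes, 36.8%.

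Non-ATPase subunits make up the lid and the scaffold of the cap. Of 11, the count of rises was 6, 7, 6 and 7 and of falls 3, 0, 3 and 4 in NICD1 to NICD4. PSMD1, PSMD4, PSMD8, PSMD11 and PSMD13 rose in each group. PSMD13, a lid scaffold subunit, had 704, 818 and 631 CPM in NICD1, 688, 583 and 693 CPM in NICD2, 728, 620 and 606 CPM in NICD3, 1079, 738 and 831 CPM in NICD4, and 459, 346 and 391 CPM in EV. It did not overlap EV in any group and rose by 0.85, 0.72, 0.71 and 1.14 (SE 0.15). PSMD4, a ubiquitin receptor, rose by 0.67, 0.74, 0.66 and 0.83 (SE 0.10). PSMD11, a lid subunit, rose by 0.56, 0.72, 0.45 and 0.51 (SE 0.08), and was at -0.03 in NICD4 with library totals alone.

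PSMD8, another lid subunit, rose by 0.32, 0.40, 0.39 and 0.35 (SE 0.08), and PSMD1, a large scaffold subunit of the base, by 0.31, 0.39, 0.27 and 0.28 (SE 0.08). Library totals alone put PSMD8 at -0.14, 0.12, -0.03 and -0.19 and PSMD1 at -0.15, 0.10, -0.15 and -0.26. PSMD2, the other large scaffold subunit, rose in NICD1, NICD2 and NICD4 (0.33, 0.29 and 0.62, SE 0.10), was at -0.13 in NICD1 with library totals alone, and its span lies wholly within that of EIF2B5 on the same strand. PSMD3, a lid subunit, rose in NICD2, NICD3 and NICD4 (0.37, 0.22 and 0.28, SE 0.09). Its NICD4 rise was lost without NICD4 replicate 1. The NICD3 rise (adjusted p = 0.044) was lost without any 1 of 9 libraries, was -0.08 with the GC trend removed and was a called fall of 0.20 with library totals alone. In NICD4 the change of PSMD3 was -0.28 with the GC trend removed and -0.27 with library totals alone, both called as falls.

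PSMD14, the deubiquitinase that removes ubiquitin chains before a substrate enters the core, fell in 3 groups. It had 114, 87.2 and 130 CPM in NICD1, 180, 221 and 171 CPM in NICD2, 134, 150 and 155 CPM in NICD3, 67.1, 103 and 84 CPM in NICD4, and 183, 188 and 204 CPM in EV. NICD2 overlapped EV, and the other 3 groups lay wholly below it. The changes were -0.81, -0.01, -0.39 and -1.20 (SE 0.16), with adjusted p of 0.00033, 0.95, 0.04 and 6.9e-06. The NICD3 call was lost when EV replicate 2, EV replicate 3, NICD4 replicate 3 or any NICD3 library was left out. NICD4 was below NICD2 by 1.18 (adjusted p = 4.6e-05) and below NICD3 by 0.80 (0.0013).

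PSMD12 and PSMD6, both lid subunits, had the same order of group means as PSMD14, from high to low EV, NICD2, NICD3, NICD1 and NICD4. This order was not particular to the lid, as PSMA3, PSMA6, PSMC6, PSMG1, PSMD5, PSMD9 and PSMD10 had it too. PSMD12 had 88, 68.6 and 92.3 CPM in NICD1, 109, 129 and 106 CPM in NICD2, 83.7, 91.2 and 95.3 CPM in NICD3, 53.4, 76.1 and 67.7 CPM in NICD4, and 138, 139 and 140 CPM in EV. No NICD library reached the EV libraries. The falls of 0.76, 0.63 and 1.09 in NICD1, NICD3 and NICD4 (SE 0.13) were called, and the change of -0.28 in NICD2 was not. PSMD6 fell by 0.47, 0.34 and 0.93 in the same 3 groups (SE 0.13), and these became -0.05, 0.02 and -0.39 once the GC trend was removed.

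The changes of PSMD12 with the GC trend removed were 0.07, 0.21, 0.04 and -0.11, and those of PSMD14 were -0.37, 0.27, -0.03 and -0.63. PSMD7, the partner of PSMD14 in its enzymatic dimer, was at 0.03, 0.03 and 0.07 in NICD1 to NICD3, without a call, and fell by 0.21 in NICD4 (SE 0.07, adjusted p = 0.01), where it was at 0.31 and called up with the GC trend removed. Its NICD4 libraries had 120 to 130 CPM and its EV libraries 137 to 151 CPM.

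**Figure D3:**
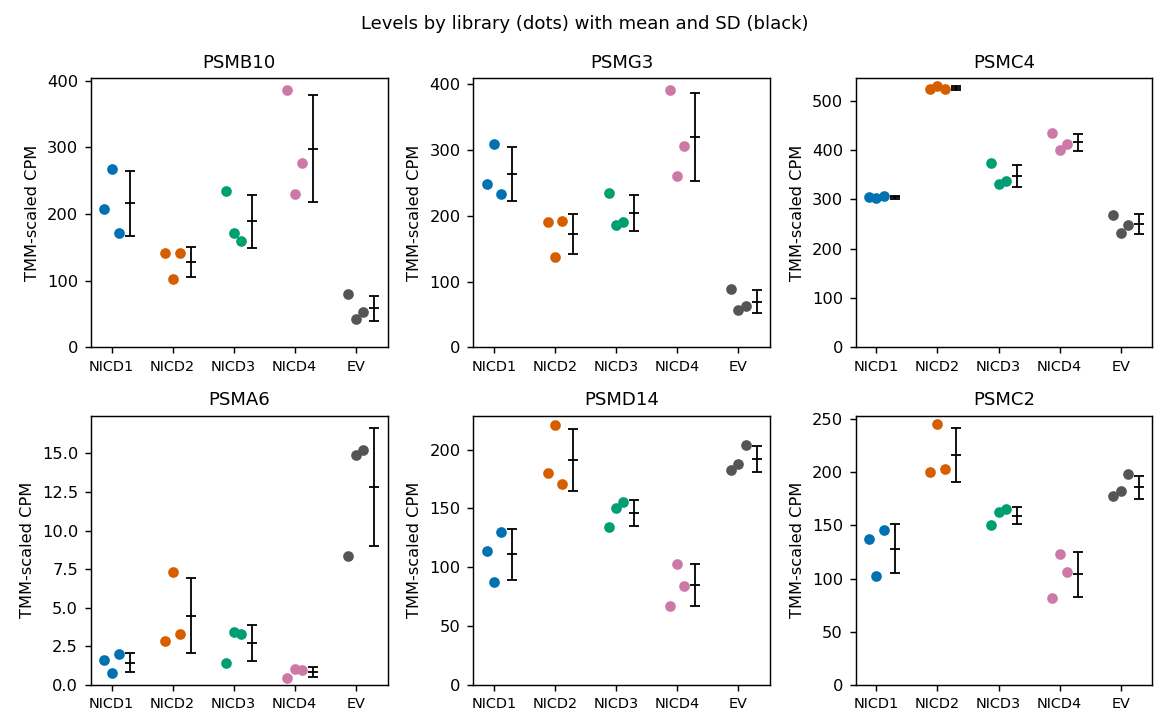
TMM-scaled CPM of 6 proteasome genes in each library (dots), with the mean and SD of the 3 libraries of each group in black, NICD1 to NICD4 and then EV. PSMB10 and PSMG3 are higher and PSMA6 is lower in all NICD libraries than in any EV library, PSMC4 peaks in NICD2 at 523 to 530 CPM, and PSMD14 and PSMC2 are lowest on average in NICD4.

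The assembly chaperones are not part of the finished proteasome. PSMG1 with PSMG2 and PSMG3 with PSMG4 form the pairs that build the alpha ring, and PSMD5, PSMD9 and PSMD10 escort the ATPases. Of these 7, PSMG3 and PSMG4 rose in every NICD group, and the other 5 fell in NICD1 and NICD4. The median log2 change of the chaperones was -0.37, -0.22, -0.24 and -0.88, and with library totals alone -0.83, -0.50, -0.66 and -1.42. Once the GC trend was removed it was 0.02, 0.05, 0.04 and -0.14. Relative to the median of all tested genes this was -0.10, -0.08, -0.06 and -0.24, against -0.29, -0.19, -0.17 and -0.76 with TMM. In that setting 2, 3, 2 and 2 chaperones rose and 1, 0, 0 and 2 fell. All tested genes then rose in 41.7%, 38.8%, 39.2% and 41.8% of cases and fell in 28.9%, 22.3%, 27.2% and 33%.

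PSMG3 had 248, 310 and 233 CPM in NICD1, 190, 138 and 192 CPM in NICD2, 235, 186 and 190 CPM in NICD3, 392, 260 and 306 CPM in NICD4, and 89.5, 57.1 and 62.5 CPM in EV. Every NICD library was above every EV library, and NICD2 held the lowest of them. It rose 3.83-fold (2.94 to 4.98) in NICD1, 2.5-fold (1.92 to 3.26) in NICD2, 2.96-fold (2.27 to 3.85) in NICD3 and 4.61-fold (3.54 to 6) in NICD4. These ranges were formed as for PSMB10. The noncoding gene PSMG3-AS1 on the other strand covers 25.4% of its span and averaged 2.31, 1.55, 1.94 and 2.79 CPM in NICD1 to NICD4 and 0.561 CPM in EV. Its partner PSMG4 rose by 0.81, 0.56, 0.68 and 0.53 (SE 0.11), with 32.8 to 44.4 CPM over the NICD libraries, against 21.1 to 29.2 CPM in EV. Library totals alone put PSMG4 at -0.02 in NICD4.

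The genes of the other alpha-ring pair both fell in NICD4. PSMG2 had 62.2, 55.9 and 73.6 CPM in NICD1, 73, 73.2 and 65.8 CPM in NICD2, 78.2, 82.5 and 82.3 CPM in NICD3, 29.8, 53.8 and 43.6 CPM in NICD4, and 85.8, 76.4 and 84 CPM in EV. NICD4 was lower than every other group without overlap. Its fall there was 0.99 on the log2 scale (SE 0.16, adjusted p = 4e-05), and it was 0.98 with the GC trend removed. NICD4 was below NICD1, NICD2 and NICD3 by 0.62, 0.78 and 0.97. In NICD1 the fall of 0.37 had an adjusted p of 0.047, lost without any of 11 of the 15 libraries. PSMG1 fell by 0.32, 0.24 and 0.58 in NICD1, NICD3 and NICD4 (SE 0.09), at 0.02, 0.04 and -0.14 with the GC trend removed, and it lies within the annotated span of TMPRSS3 on the same strand.

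Among the chaperones of the ATPase ring, PSMD9 fell in NICD1 and NICD4. It had 8.66, 6 and 9.29 CPM in NICD1, 10.5, 13.4 and 11.8 CPM in NICD2, 11.8, 12.5 and 10.8 CPM in NICD3, 5.78, 6.72 and 5.64 CPM in NICD4, and 14.7, 13.8 and 15.4 CPM in EV. All NICD libraries lay below EV, nearest in NICD2. The changes were -0.89, -0.30, -0.32 and -1.27 (SE 0.15), of which the first and the last were called, and with the GC trend removed they were -0.82, -0.22, -0.28 and -1.21. Nearly all of its span (99.8%) is shared with another annotated gene on the same strand, so its level is uncertain.

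PSMD5 and PSMD10 fell in all 4 NICD groups. PSMD10, also known as the oncoprotein gankyrin, had 38.2, 31.8 and 37.7 CPM in NICD1, 46.7, 54 and 42.9 CPM in NICD2, 42.9, 42.9 and 43.8 CPM in NICD3, 23.9, 38.9 and 30 CPM in NICD4, and 58.8, 63.2 and 63.9 CPM in EV. Its changes were -0.79, -0.38, -0.52 and -1.03 (SE 0.14), and those of PSMD5 were -0.68, -0.56, -0.58 and -0.88 (SE 0.10). For both genes every NICD library was below every EV library. Removal of the GC trend put PSMD10 at -0.08, 0.05, 0.05 and -0.17 and PSMD5 at 0.04, -0.13, 0.00 and -0.01, and neither was called in any group. Their transcripts have 41.5% and 41.2% GC.

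Activators bind the core in place of the ATPase cap, and the inhibitor gene PSMF1 is grouped with them here. PSME1 and PSME2 form the cytosolic activator that interferon induces. PSME2 had 262, 277 and 253 CPM in NICD1, 214, 180 and 216 CPM in NICD2, 314, 262 and 269 CPM in NICD3, 300, 286 and 295 CPM in NICD4, and 160, 120 and 137 CPM in EV. All NICD libraries were above EV and NICD2 was the lowest NICD group. The rises were 0.94, 0.55, 1.03 and 1.09 (SE 0.11). PSME1 rose by 0.53, 0.66 and 0.46 in NICD1, NICD3 and NICD4 (SE 0.09), with -0.09 in NICD4 with library totals alone, and was not called in NICD2 (0.17). NICD2 was below NICD1 by 0.37 and NICD3 above NICD2 by 0.50 for PSME1.

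PSMF1, an inhibitor of the core in vitro, rose by 0.65, 0.76, 0.71 and 0.64 (SE 0.08), with 159 to 195 CPM in the NICD libraries and 107 to 113 CPM in the EV libraries. PSME4, a nuclear activator linked to acetylated histones, rose in NICD1 and NICD4 (0.36 and 0.46, SE 0.10), and with library totals alone it was at -0.10 and -0.09 there. PSME3 was at 0.10, 0.03, 0.06 and 0.14, with 172 to 203 CPM in NICD libraries and 166 to 182 CPM in EV libraries.

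Differences among the NICD groups were tested gene by gene. The F-test over the 4 NICD groups called 22 of 43 genes (51.2%), and it called 67.9% of all tested genes. In NICD2 against NICD1 11 were higher and 4 lower, where 18.6% of all tested genes were higher and 18.6% lower. In NICD3 against NICD1 1 was higher, PSMD9, and none lower (background 3.56% and 3.16%), and 0 to 2 were higher over the fits without 1 library. In NICD4 against NICD1 2 were higher and 4 lower (13.3% and 13.9%), and without NICD4 replicate 1 there was 1 of each. Those 2 were PSMC4 and PSMD2, and the 4 were PSMA3, PSMD6, PSMD7 and PSMG2, of which PSMC4 alone kept its call whichever library was left out.

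In NICD3 against NICD2 PSME1 and PSME2 were higher and PSMC4, PSMC6 and PSMD11 lower (background 8.23% and 6.8%). In NICD4 against NICD2 9 were higher and 17 lower (30% and 33.5%), and in NICD4 against NICD3 7 were higher and 13 lower (23.4% and 25.6%). Without NICD4 replicate 1 the 7 were 2 and the 13 were 11. Of the 7 chaperones, 5 were lower and PSMG3 was higher in NICD4 than in NICD2 and likewise in NICD4 than in NICD3. In NICD2 against NICD1 the chaperones PSMG1, PSMD9 and PSMD10 were higher and PSMG3 lower. Without NICD2 replicate 2 the 11 rises in NICD2 against NICD1 were 4.

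Summed over genes, the share of counted reads gives another view, scaled by library totals alone. With that scaling the median change of all tested genes was -0.53, -0.31, -0.48 and -0.66 in NICD1 to NICD4. The 16 core genes took 0.559% ± 0.0042 of reads in NICD1, 0.617% ± 0.00963 in NICD2, 0.569% ± 0.00356 in NICD3, 0.549% ± 0.0174 in NICD4 and 0.509% ± 0.0354 in EV (SD, n = 3 each). The 17 cap genes took 0.485%, 0.603%, 0.504% and 0.499% in NICD1 to NICD4 and 0.517% in EV. NICD2 was the highest group for both, without overlap with any other. The 7 chaperones took 0.0478% to 0.0559% of reads in every NICD library and 0.0566% to 0.0598% in EV libraries, so the groups did not overlap. All 45 genes together took 1.18%, 1.36%, 1.21% and 1.18% in NICD1 to NICD4 and 1.17% in EV. Sums are set by the genes with most reads, and shares of a library move against each other.

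**Figure D4:**
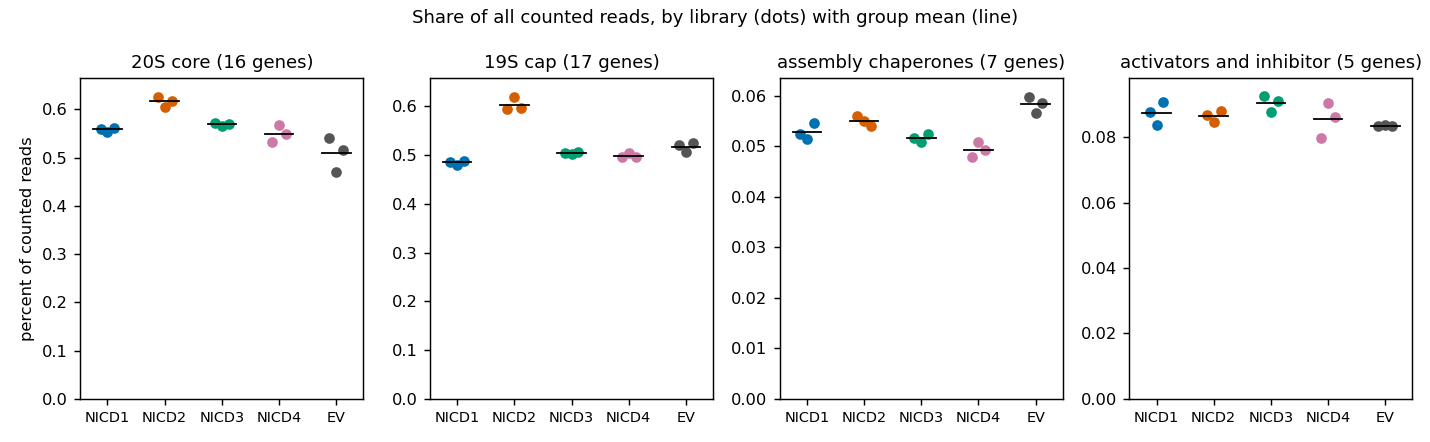
Percent of all counted reads taken by the core, cap, chaperone and activator genes in each library (dots) and the mean of each group (lines), NICD1 to NICD4 and then EV, each axis from 0. NICD2 is highest for core and cap (means 0.617% and 0.603%), and EV is highest for the chaperones (mean 0.0583%).

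GC content of the transcripts moved with the direction of change. Members had a median GC content of 48.7% (36.8% to 60.1%), and all tested genes with a value 49.4%. Genes that rose had medians of 52%, 52.1%, 52.1% and 52.3% in NICD1 to NICD4, and genes that fell 43%, 41.5%, 43% and 44.5%. Spearman's rho between change and GC content over the 43 genes was 0.48, 0.47, 0.56 and 0.53, and over all tested genes 0.46, 0.33, 0.42 and 0.52. These are descriptions across genes that share the same libraries.

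With the GC trend removed within each library, 31 genes rose and 4 fell in NICD1, 38 and 1 in NICD2, 31 and 1 in NICD3, and 30 and 7 in NICD4. All tested genes then rose in 41.7%, 38.8%, 39.2% and 41.8% of cases and fell in 28.9%, 22.3%, 27.2% and 33%. The median change of the 43 genes was 0.52, 0.58, 0.63 and 0.48. That of all tested genes moved by 0.17 to 0.22, to 0.12, 0.13, 0.10 and 0.10. Relative to the median of all genes the 43 genes were then higher by 0.40, 0.45, 0.53 and 0.38, against 0.44, 0.46, 0.48 and 0.58 with TMM. PSMA6 was the 1 gene still called down in every NICD group, and all 17 cap genes rose in NICD2. The fall of PSMG2 in NICD4 and those of PSMD9 in NICD1 and NICD4 were of similar size with the trend removed, as given above.

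**Figure D5:**
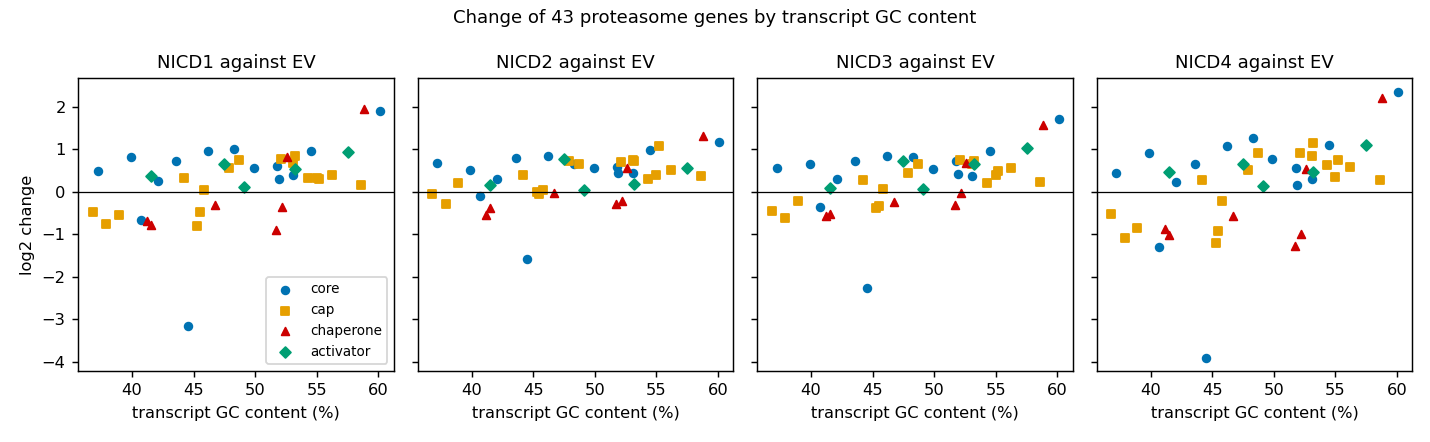
Log2 change against EV (vertical axis) over transcript GC content in percent (horizontal axis) for the 43 tested proteasome genes, one panel a NICD group, with markers for core, cap, chaperone and activator genes. Changes are higher at higher GC content (rho 0.47 to 0.56), PSMB10 and PSMG3 lie at the top right with 60.1% and 58.8% GC, and PSMA6 lies far below the rest.

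Levels per kilobase of exon in EV differed widely among genes. Behind PSMA7 came PSMB7 (274 ± 36.7 CPM per kilobase), PSMB4 (231 ± 28.2) and PSMB1 (224 ± 35), which overlap within their SD. The lowest tested genes were PSMD9 (1.66 ± 0.0929), PSMA6 (1.97 ± 0.589) and PSMG4 (2.37 ± 0.394). With the length of the longest protein-coding transcript in place of all exons PSMA7 stayed first (627 ± 74.1), PSMB1 came second, and PSMD9 stayed last (5.25 ± 0.293). The 29 proteasome pseudogenes in the table held 1822 reads in all, 0.0528% of the reads of the members.

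Proteasome genes outside the pattern moved in both directions. For genes on this and all other lists outside the pattern, changes are given with TMM scaling only. Whether their directions turn with library totals alone or with the GC trend removed was not tested. Of 14, 7 rose in each NICD group, where 35.6%, 29.6%, 33% and 37.4% of all tested genes rose in NICD1 to NICD4, and 4, 2, 2 and 6 fell, where 39.8%, 29.9%, 36.2% and 43.6% of all tested genes fell. ADRM1, a ubiquitin receptor of the cap, rose by 0.79, 0.92, 0.81 and 1.29 (SE 0.14), and SEM1, a small lid subunit, by 1.09, 0.84, 1.09 and 1.06 (SE 0.14). POMP, the maturation factor of the core, rose by 0.35, 0.52, 0.35 and 0.32 (SE 0.10). TXNL1, a thioredoxin on the cap, rose by 0.92, 1.32, 1.06 and 0.64 (SE 0.10). UCHL5, the deubiquitinase that ADRM1 binds, fell in NICD1 and NICD4, by 2.23 and 2.03 (SE 0.22), and had 4.93 ± 0.971 CPM in NICD1, 22.6 ± 6.17 CPM in NICD2, 17.2 ± 2.05 CPM in NICD3, 5.8 ± 1.78 CPM in NICD4 and 23.2 ± 3 CPM in EV (SD, n = 3 each).

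Of 16 genes known as regulators of proteasome genes, 3 rose in each NICD group and 10, 7, 8 and 10 fell in NICD1 to NICD4, beside the same shares of all tested genes (35.6%, 29.6%, 33% and 37.4% up, 39.8%, 29.9%, 36.2% and 43.6% down). NFE2L1, the factor that raises subunit genes when the proteasome is inhibited, was at -0.17, -0.04, -0.15 and 0.13, without a call. Its relative NFE2L2 fell by 2.10, 0.79, 1.39 and 2.75 (SE 0.31), with 13.7 ± 4.85, 33.7 ± 12.3, 21.6 ± 4.33 and 8.64 ± 3.28 CPM in NICD1 to NICD4 and 56.7 ± 10.9 CPM in EV. NFYA, a subunit of NF-Y, fell by 1.04, 0.99, 1.07 and 1.36 (SE 0.14). The other NF-Y subunits differed from it. NFYB fell in NICD1 and NICD4 (-0.44 and -0.69) and was not called in NICD2 and NICD3. NFYC rose in NICD1 to NICD3 (0.22, 0.30 and 0.35) and was not called in NICD4. KEAP1, the inhibitor of NFE2L2, rose by 0.75, 0.45, 0.43 and 0.64 (SE 0.08), and MAFK, a dimer partner, by 1.18, 1.22, 1.06 and 1.59 (SE 0.13). The relatives of MAFK went the other way. MAFF changed by -0.69, -0.60, -0.77 and -0.70, all called. MAFG fell in NICD1, NICD3 and NICD4 (-0.48, -0.53 and -0.97) and was not called in NICD2 (-0.16).

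The genes that only share a name with the proteasome moved differently from each other. PSMC3IP, a recombination cofactor that binds PSMC3, fell by 2.29, 1.09, 1.76 and 2.63 (SE 0.44), with 3.37, 1.36 and 4.21 CPM in NICD1, 4.54, 10.2 and 5.28 CPM in NICD2, 2.27, 4.98 and 5.3 CPM in NICD3, 2.53, 2.93 and 1.26 CPM in NICD4, and 10.1, 15.7 and 15.1 CPM in EV. Its NICD2 and EV libraries met at 10.2 and 10.1 CPM. PSME3IP1, an interactor of PSME3, was at 0.13 and -0.05 in NICD1 and NICD2, without a call, and rose by 0.17 and 0.22 in NICD3 and NICD4 (SE 0.07).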

How the data were processed

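The deposited table holds, for each gene and library, a log2 value, which the values show to be log2 of the read count plus 1, unscaled: whole read counts were recovered for 100.0% of the deposited values, within 0.001. The submitters' processing notes name TopHat2 2.0.6, HTSeq and GRCh37; strand and overlap settings are not given in the sources used here. Gene types, GC content and lengths came from GENCODE v29 (GRCh38), coordinates in the table are GRCh37, and promoters came from RefSeq (GRCh38.p14).

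Recovered counts were scaled by TMM, and log2(scaled count + 1) was fitted with limma 3.58.1 (trend and robust settings, statmod 1.5.0, R 4.3.3). The unit being log2, limma was the main test. All 15 libraries shared 1 estimate of the spread, and Benjamini-Hochberg adjustment ran over 15122 genes, those with at least 0.548 CPM in 3 libraries and 15 reads in all. The pseudocount understates changes of low genes. Depth was 11630195 to 27704492 reads. The same steps were tested on simulated data.

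Every member could be named. Full statistics went to members with the same call in all 4 NICD groups and to the 3 largest rises and falls in each group. They also went to members called in opposite directions and members called between NICD groups. Other genes came from 4 lists (proteasome genes outside the pattern, regulators, ubiquitin and delivery, heat shock). Beyond these, colorectal, astrocyte and glioma markers, the NOTCH receptor genes and HES1 were named to describe the cells and groups. Genes that overlap a member and a pseudogene were named where they bear on a member's reads. Members and lists were chosen with earlier results of these data known. Alternatives were other scalings, tests, filters and pseudocounts, GC and length trends, 2-group fits, a replicate block and leaving out each library; GC with the block was chosen after seeing the data.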

Additional observations from a re-analysis of the deposited data

Results flagged for a closer look

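The changes of PSMC2 against EV had different signs in different NICD groups, of which the positive one was not called, and with the GC trend removed they were all positive (0.26, 0.69, 0.43 and 0.11). NICD2 was above NICD1 by 0.76 on the log2 scale (SE 0.15, adjusted p = 0.002, limma), with changes against EV of 0.21 in NICD2, not called, and -0.55 in NICD1. NICD4 against NICD2 was -1.07 (adjusted p = 5.7e-05), with -0.86 in NICD4 and 0.21 in NICD2 against EV. Both differences were still called with the GC trend removed (0.43 and -0.58).

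PSMD7 was lower in NICD4 than in each other NICD group by small amounts, and none of these calls held with the GC trend removed (-0.12, 0.02 and -0.09, with adjusted p of 0.22, 0.83 and 0.3, limma). The call against NICD1 was also lost without NICD1 replicate 1, NICD1 replicate 3 or NICD4 replicate 1. NICD4 against NICD1 was -0.23 (SE 0.07, adjusted p = 0.021, limma), NICD4 against NICD2 was -0.23 (adjusted p = 0.0071) and NICD4 against NICD3 was -0.28 (adjusted p = 0.0044). Against EV, PSMD7 fell in NICD4 (-0.21) and was not called in NICD1, NICD2 and NICD3 (0.03, 0.03 and 0.07).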

How the results depend on the processing

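Of 146 called changes against EV, limma-voom, both other pseudocounts, the 50-read filter and median-of-ratios scaling kept all, and the replicate block lost 1. With the GC trend removed 117 kept their call, 12 lost it and 17 turned, with library totals alone 97, 24 and 25, and with the length trend removed 136, 9 and 1. Of 73 calls between NICD groups, 45 kept their call, 24 lost it and 4 turned with the GC trend removed, 64 kept it and 9 lost it with library totals alone, and 67 kept it and 6 lost it with the length trend removed. The cause was not tested. Of 30 same-number pairs of libraries 13 correlated above 0.1, from -0.429 to 0.363, and different-number pairs ranged from -0.398 to 0.41. Between EV, NICD2, NICD3 and NICD4, same-number pairs of replicates 1 and 2 were all positive, at 0.142 to 0.363. Their pairs with NICD1 were all negative, and pairs of replicate 3 had both signs. Whether the numbers pair the libraries is not settled by these values. With the replicate block 28 genes rose and 11 fell in NICD1, 27 and 3 in NICD2, 27 and 8 in NICD3, and 28 and 13 in NICD4.

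With library totals alone, rises numbered 13 in NICD1, 16 in NICD3 and 13 in NICD4, and falls 9 in NICD2, 17 in NICD3 and 20 in NICD4. NICD2 against NICD1 gave 22 higher and 2 lower, NICD3 against NICD1 0 higher, NICD3 against NICD2 7 lower, and NICD4 against NICD2 4 higher and 28 lower. Medians were -0.10, 0.14, -0.01 and -0.09, 10 genes were called up and 8 down in all 4 groups, and the F-test called 35. With the GC trend removed, with or without the replicate block, 4, 1, 1 and 7 genes fell, NICD4 against NICD1 gave 1 higher, medians were 0.52, 0.58, 0.63 and 0.48, and 1 gene was called down in all 4. With the length trend removed 5 fell in NICD3, 1 was higher in NICD4 against NICD1, and medians were 0.48 in NICD2 and 0.52 in NICD4. The NICD4 median was 0.50 with median-of-ratios. Without a filter NICD3 against NICD1 gave 0 higher and NICD4 against NICD1 gave 1. In fits of 2 groups 6 fell in NICD2, NICD3 against NICD1 gave 0 higher, NICD4 against NICD1 1 higher and 0 lower, NICD3 against NICD2 7 lower, the NICD4 median was 0.47, and 5 genes were called down in all 4.

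Directions that turned with the GC trend removed, with or without the replicate block, were in NICD1 PSMA3 0.07, PSMC2 0.26, PSMC6 0.37, PSMD12 0.07, PSMG1 0.02 and PSMD5 0.04, in NICD2 PSMD10 0.05, in NICD3 PSMC6 0.22, PSMD3 -0.08, PSMD6 0.02, PSMD12 0.04, PSMG1 0.04 and PSMD10 0.05, in NICD4 PSMC2 0.11, PSMC6 0.47, PSMD3 -0.28 and PSMD7 0.31, and in NICD4 against NICD2 PSMA5 0.26, PSMC6 0.04, PSMD7 0.02 and PSMD5 0.12. The median of all tested genes against EV was 0.12, 0.13, 0.10 and 0.10 in NICD1 to NICD4 with the GC trend removed. With the length trend removed PSMD6 was at 0.03 in NICD3. With library totals alone they were in NICD1 PSMA4 -0.19, PSMA7 -0.05, PSMB5 -0.16, PSMC3 -0.06, PSMC4 -0.17, PSMD1 -0.15, PSMD2 -0.13, PSMD8 -0.14 and PSME4 -0.10, in NICD3 PSMA4 -0.12, PSMA7 -0.05, PSMB5 -0.01, PSMD1 -0.15, PSMD3 -0.20 and PSMD8 -0.03, and in NICD4 PSMA4 -0.33, PSMA5 -0.11, PSMA7 -0.25, PSMD1 -0.26, PSMD3 -0.27, PSMD8 -0.19, PSMD11 -0.03, PSMG4 -0.02, PSME1 -0.09 and PSME4 -0.09.

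Leaving out 1 library gave 2 to 5 falls in NICD2, 5 to 9 in NICD3, 2 to 5 genes called down in all 4 groups, medians of 0.34 to 0.45 in NICD2 and 0.38 to 0.46 in NICD4, 4 to 12 higher and 1 to 5 lower in NICD2 against NICD1, 0 to 2 higher in NICD3 against NICD1, 1 to 3 higher and 0 to 10 lower in NICD4 against NICD1, 1 to 2 higher and 1 to 5 lower in NICD3 against NICD2, 5 to 10 higher in NICD4 against NICD2, and 1 to 9 higher in NICD4 against NICD3, the 1 without NICD3 replicate 2. Without EV replicate 2, 135 of the 146 calls held and 11 were lost.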

Other observations

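Genes that supply the proteasome with substrates moved in both directions. Of 16 tested genes for ubiquitin and its delivery 7, 6, 6 and 9 rose and 5, 4, 5 and 6 fell in NICD1 to NICD4, where 35.6%, 29.6%, 33% and 37.4% of all tested genes rose and 39.8%, 29.9%, 36.2% and 43.6% fell. RAD23B, a shuttle factor that carries ubiquitinated proteins to the proteasome, fell in each NICD group, with log2 changes of -1.05, -0.33, -0.53 and -1.09 (SE 0.08).

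Of 6 heat shock genes 5, 5, 5 and 4 rose and none fell, beside the same shares of all tested genes, with medians of 1.46, 1.88, 1.52 and 1.23. HSPB1, a small heat shock protein, rose by 2.64, 2.02, 2.67 and 3.03 (SE 0.19), and DNAJB1, a cochaperone of HSP70, by 1.74, 1.73, 1.53 and 1.92. HSPH1 was not called in any NICD group.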
